A study of Mus musculus with 12 samples.

Results

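The 10 genes described here encode killing machinery and associated proteins of cytotoxic lymphocytes, and the T-box transcription factors that switch the machinery on. They are the granzymes Gzma, Gzmb and Gzmk, perforin (Prf1), the granule protein Nkg7, the cathepsin Ctsw and interferon gamma (Ifng). The factors Eomes and Tbx21 and the granzyme B inhibitor Serpinb9 complete the list. All 10 were taken by gene symbol from a table of read counts for 55401 mouse genes, and each symbol matched 1 row. All 10 passed the filter on low counts that left 16915 genes for testing. The counts come from bulk RNA sequencing of peritoneal lavage cells of C57BL/6J mice, with 4 libraries in each of 3 groups. The ID8-FSHR mice had received an intraperitoneal injection of ID8, a mouse ovarian surface epithelial cancer line, in its derivative that overexpresses Defb29 and Vegf-a, with the follicle-stimulating hormone receptor FSHR added. The ID8 mice had received the Defb29 and Vegf-a line without the receptor, and the uninjected mice had received nothing. Both tumour groups were lavaged with 8 mL of saline on day 7. The series text puts the dose at 4000000 cells, whereas the sample protocol puts it at 5000000. The age of the mice, the promoters that drive the added genes and whether either line is 1 clone are also not stated in the labels. No group was injected with vehicle, so tumour cells and the injection itself cannot be told apart in the comparisons with uninjected mice. In a lavage, a lower level of a gene from fewer cells of a type and from less RNA per cell cannot be told apart either.

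Natural killer (NK) cells and cytotoxic T cells store granzymes, which are serine proteases, together with perforin in secretory granules. On contact with a target cell the granules are released, perforin opens the target membrane, and the granzymes enter and cleave proteins that start cell death. The T-box factors Tbx21 (T-bet) and Eomes bind a short DNA element near granule genes and Ifng and are needed for the maturation of NK cells and effector T cells. Serpinb9 blocks granzyme B; cytotoxic cells use it for self-protection, and it is also found in dendritic cells, mast cells and some tumour cells.

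Total counts per library ran from 47419608 to 64333677, and levels are given below in CPM, which are counts scaled to the effective library size. On the first principal component of the tested genes, ID8-FSHR replicate 2 lay at -24.8, while the other 7 tumour libraries lay between -68.7 and -60.7 and the uninjected libraries between 116 and 121. It also held the least tumour signal of the 8: 6 tumour and mesothelial markers summed to 741 CPM in ID8-FSHR replicate 2, to between 1666 and 1936 CPM in the other ID8-FSHR libraries, to between 2218 and 2783 CPM in ID8 and to between 7.60 and 11.8 CPM in uninjected libraries. The receptor's own row does not check the ID8-FSHR label: Fshr had 7 counts in ID8-FSHR replicate 4, 2 in ID8-FSHR replicate 3, 2 in ID8 replicate 3 and 0 in the remaining libraries, and ID8-FSHR below means the libraries so labelled. The labels call the cells of the tumour groups a cell line, whereas leukocyte markers were present in every library. The 10 pan-leukocyte genes summed to between 4171 and 6973 CPM in ID8-FSHR, to between 3683 and 4542 CPM in ID8 and to between 8449 and 8909 CPM in uninjected mice.

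The promoters of 4 members are printed because T-box factors act through a short element near granule genes. Each window runs from 250 bases before to 50 bases after the transcript start in the RefSeq annotation of GRCm38.p6, on the gene's own strand, and capitals mark the T-box core AGGTGT or its reverse complement ACACCT. The first 3 belong to members that hold this core close to their start, and Gzmb is the member with the largest change against uninjected mice that holds none. The windows are Prf1 at chr10:61297586-61297885 (plus strand), Gzma at chr13:113100932-113101231 (minus strand), Nkg7 at chr7:43436888-43437187 (plus strand) and Gzmb at chr14:56262285-56262584 (minus strand).
Prf1: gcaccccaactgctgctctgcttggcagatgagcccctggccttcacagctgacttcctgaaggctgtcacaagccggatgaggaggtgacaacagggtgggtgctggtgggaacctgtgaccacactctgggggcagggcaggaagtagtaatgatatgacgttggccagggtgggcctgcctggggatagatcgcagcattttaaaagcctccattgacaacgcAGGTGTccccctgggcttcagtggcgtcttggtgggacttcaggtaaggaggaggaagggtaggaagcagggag
Gzma: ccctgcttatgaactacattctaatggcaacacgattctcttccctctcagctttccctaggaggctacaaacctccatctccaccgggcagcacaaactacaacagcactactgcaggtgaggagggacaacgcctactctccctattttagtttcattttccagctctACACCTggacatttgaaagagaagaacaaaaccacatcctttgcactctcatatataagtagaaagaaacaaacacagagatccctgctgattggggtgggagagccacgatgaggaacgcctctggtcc
Nkg7: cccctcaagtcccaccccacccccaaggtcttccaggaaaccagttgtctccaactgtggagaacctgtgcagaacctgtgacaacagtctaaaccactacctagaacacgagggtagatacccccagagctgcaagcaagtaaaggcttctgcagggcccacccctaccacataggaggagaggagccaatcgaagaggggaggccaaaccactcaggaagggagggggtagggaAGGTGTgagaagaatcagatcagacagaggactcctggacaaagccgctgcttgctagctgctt
Gzmb: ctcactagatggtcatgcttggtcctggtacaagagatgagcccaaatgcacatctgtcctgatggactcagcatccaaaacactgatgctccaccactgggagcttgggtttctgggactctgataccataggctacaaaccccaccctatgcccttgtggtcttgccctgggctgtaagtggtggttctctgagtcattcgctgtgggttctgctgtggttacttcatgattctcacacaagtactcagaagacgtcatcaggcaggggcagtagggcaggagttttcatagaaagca
Windows were at hand for 9 of the 10 members, Ctsw being the other. The core was searched on both strands. It began 14 bases before the start in Nkg7, 24 bases before it in Prf1, and 80 bases before it on the reverse strand in Gzma, and Gzmk held it at 232 and at 169 bases before the start. It was found in 4 of the 9 member windows and in 13.7% of all 32851 promoter windows. The longer element AGGTGTGA, which contains the core, was found in 1 member window, that of Nkg7, and in 1.28% of all windows. The Runx core TGTGGT was found in 5 member windows, among them Gzmb at 93 and 34 bases before its start, and in 16.8% of all windows. The windows of Ifng, Eomes, Tbx21, Serpinb9 and Gzmb held no T-box core. These matches describe letters in a short window and say nothing about binding.

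The T-box factors were read first. Eomes (ENSMUSG00000032446.14, plus strand of chromosome 9, 118478212 to 118486132, GRCm38) stood at 4.10, 16.5, 7.79 and 17.4 CPM in ID8-FSHR replicates 1 to 4, against 3.54, 2.54, 1.79 and 3.34 CPM in ID8 and 2.15, 3.25, 3.23 and 3.79 CPM in uninjected mice. Every ID8-FSHR library was above every ID8 and every uninjected library, although replicate 1 exceeded the next library only narrowly. Eomes was 4.07-fold higher in ID8-FSHR than in ID8 (log2 difference 2.02, SE 0.40, edgeR adjusted p = 0.00687) and 3.68-fold higher than in uninjected mice (1.88, SE 0.40, edgeR adjusted p = 0.00111). Between ID8 and uninjected mice its log2 difference was -0.14 (SE 0.40, edgeR adjusted p = 0.767). Of its exon length, 118 bases overlap an antisense gene.

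Tbx21 (ENSMUSG00000001444.2, minus strand of chromosome 11, 97098071 to 97115331) did not follow Eomes in all groups. It stood at 1.39, 7.44, 4.25 and 9.58 CPM in ID8-FSHR, against 2.89, 0.887, 0.777 and 1.79 CPM in ID8 and 2.31, 4.70, 4.24 and 3.55 CPM in uninjected mice. The ID8-FSHR values spanned both other groups, with replicate 1 among the lowest of the 12 libraries. Tbx21 was 3.54-fold higher in ID8-FSHR than in ID8 (log2 difference 1.82, SE 0.54, edgeR adjusted p = 0.0462), close to the threshold of 0.05. The adjusted p passed the threshold in only 2 of the 12 fits that left out 1 library, those without ID8 replicate 1 and without ID8-FSHR replicate 1. Against uninjected mice its log2 difference was 0.61 in ID8-FSHR (SE 0.52, edgeR adjusted p = 0.318) and -1.21 in ID8 (SE 0.53, edgeR adjusted p = 0.0632).

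The balance of the T-box factors within a library is free of how the libraries are scaled. The ratio of Eomes to Tbx21 CPM was 2.94, 2.22, 1.83 and 1.82 in ID8-FSHR, 1.23, 2.86, 2.31 and 1.87 in ID8 and 0.932, 0.690, 0.762 and 1.07 in uninjected mice. It averaged 2.2 ± 0.527 in ID8-FSHR, 2.07 ± 0.692 in ID8 and 0.863 ± 0.170 in uninjected mice (SD, n = 4 each). All 8 tumour libraries lay above all 4 uninjected libraries. The exact two-sided permutation p was 0.0286 for either tumour group against uninjected mice, the smallest that 4 against 4 libraries allow, and 0.0857 after Benjamini-Hochberg adjustment over the 12 tests of 4 ratios, so the difference did not pass correction. Between ID8-FSHR and ID8 the ratio had an exact permutation p of 0.800 (adjusted p = 0.800). The 4 ratios were chosen after the members' values had been seen.

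**Figure D1:**
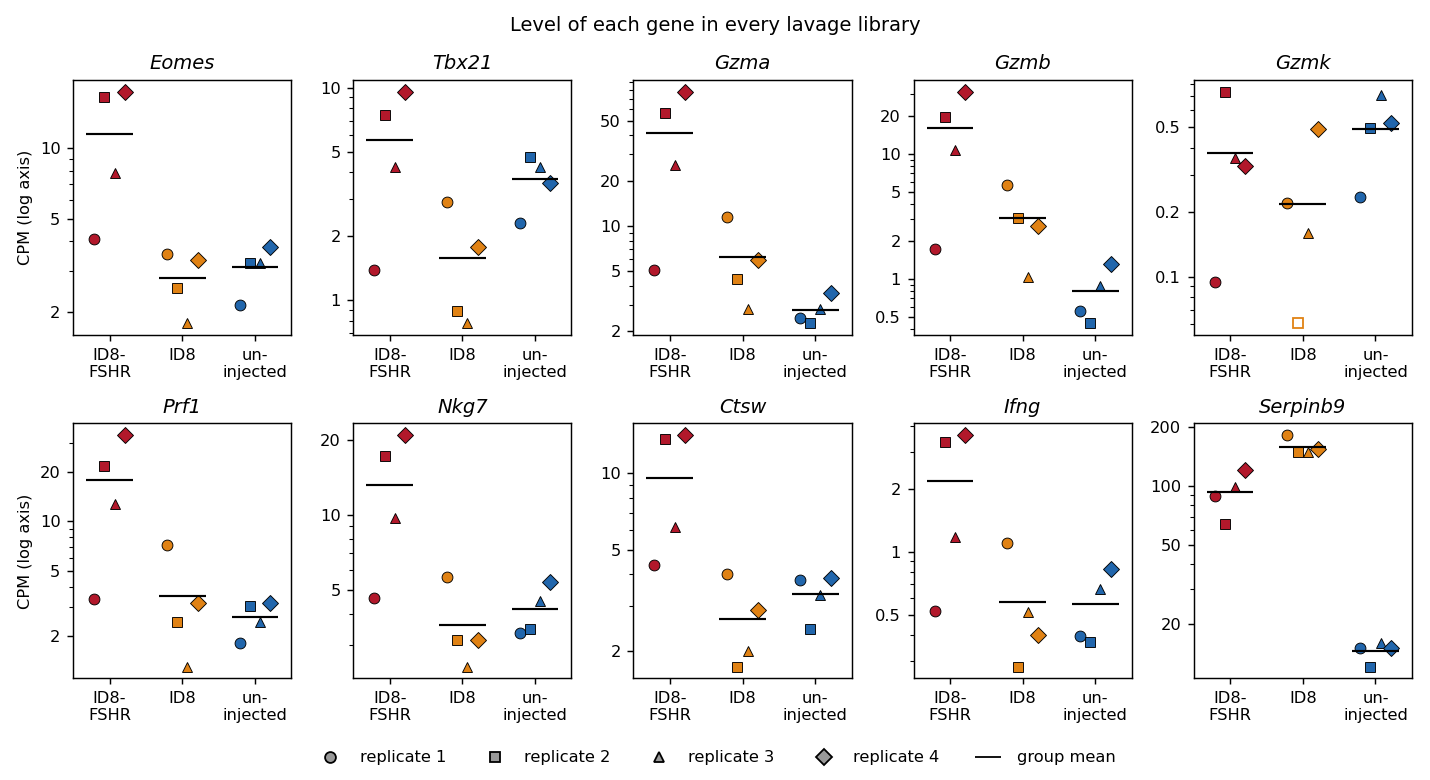
Level of each of the 10 genes in each library, in CPM on a log scale with its own range per gene; points are libraries, bars are group means, and the groups run ID8-FSHR, ID8 and uninjected from left to right. The open symbol for Gzmk in ID8 replicate 2 marks 0 counts, drawn at the limit of 3 counts. ID8-FSHR replicates 2, 3 and 4 lie well above replicate 1 in most panels, and Serpinb9 alone is highest in ID8.

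The granzymes and perforin showed the widest spread. Gzma, a tryptase of the granule (ENSMUSG00000023132.8, minus strand of chromosome 13, 113093825 to 113100981), stood at 5.11, 56.2, 25.5 and 78.3 CPM in ID8-FSHR, against 11.5, 4.45, 2.79 and 5.92 CPM in ID8 and 2.45, 2.25, 2.79 and 3.57 CPM in uninjected mice. All ID8-FSHR libraries were above all uninjected libraries, but replicate 1 lay inside the range of ID8. Gzma was 14.9-fold higher in ID8-FSHR than in uninjected mice (log2 difference 3.9, SE 0.69, edgeR adjusted p = 0.000267) and 6.64-fold higher than in ID8 (2.73, SE 0.64, edgeR adjusted p = 0.0178). The difference between ID8 and uninjected mice was 1.17 (SE 0.65, edgeR adjusted p = 0.130). The difference from ID8 lost its call in the 4 fits without ID8 replicate 3, ID8 replicate 4, ID8-FSHR replicate 2 or ID8-FSHR replicate 4.

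Gzmb, the granzyme that cleaves caspases and that Serpinb9 blocks (ENSMUSG00000015437.5, minus strand of chromosome 14, 56258838 to 56262260), was the only member besides Serpinb9 that was higher in both tumour groups than in uninjected mice. It stood at 1.74, 19.9, 10.9 and 31.7 CPM in ID8-FSHR, against 5.61, 3.10, 1.04 and 2.66 CPM in ID8 and 0.552, 0.443, 0.889 and 1.33 CPM in uninjected mice. ID8-FSHR did not overlap the uninjected group, and ID8 overlapped it by its replicate 3. Gzmb was 20.1-fold higher in ID8-FSHR than in uninjected mice (log2 difference 4.33, SE 0.78, edgeR adjusted p = 0.000309) and 3.91-fold higher in ID8 than in uninjected mice (1.97, SE 0.74, edgeR adjusted p = 0.0331). It was 5.13-fold higher in ID8-FSHR than in ID8 (2.36, SE 0.69, edgeR adjusted p = 0.0444). That last call held in 1 of the 12 fits that left out a library, the one without ID8-FSHR replicate 1. The call of ID8 against uninjected mice held in 6 of the 12 and was lost without ID8 replicate 1, ID8 replicate 2, ID8-FSHR replicate 2 or uninjected replicate 1, 2 or 3.

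Prf1, the pore-forming protein (ENSMUSG00000037202.6, plus strand of chromosome 10, 61297833 to 61304680), stood at 3.35, 21.7, 12.9 and 33.7 CPM in ID8-FSHR, against 7.17, 2.42, 1.29 and 3.19 CPM in ID8 and 1.82, 3.04, 2.42 and 3.18 CPM in uninjected mice. ID8-FSHR replicate 1 was just above the highest uninjected library and below ID8 replicate 1. Prf1 was 6.84-fold higher in ID8-FSHR than in uninjected mice (log2 difference 2.77, SE 0.62, edgeR adjusted p = 0.00165) and 5.05-fold higher than in ID8 (2.34, SE 0.61, edgeR adjusted p = 0.0275). The call against ID8 was lost in the 5 fits without ID8 replicate 2, 3 or 4 or without ID8-FSHR replicate 2 or 4. Between ID8 and uninjected mice the difference was 0.44 (SE 0.60, edgeR adjusted p = 0.543).

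Gzmk, a tryptase more typical of memory T cells than of NK cells (ENSMUSG00000042385.14, minus strand of chromosome 13, 113171608 to 113225908), stayed near the detection limit. It stood at 0.0949, 0.736, 0.361 and 0.329 CPM in ID8-FSHR, against 0.222, 0, 0.159 and 0.490 CPM in ID8 and 0.237, 0.498, 0.707 and 0.523 CPM in uninjected mice. The 0 in ID8 replicate 2 allows up to 0.0605 CPM, the level of 3 counts. The 3 groups overlapped, and none of its differences passed the test (edgeR adjusted p between 0.217 and 0.681), which at this depth does not show that the groups are alike. Of the 7 other granzymes of the mouse, Gzmm alone passed the filter, at 0.349 ± 0.188 CPM in ID8-FSHR, 0.296 ± 0.0795 CPM in ID8 and 0.516 ± 0.301 CPM in uninjected mice (SD, n = 4 each). Gzmc, which fell below the filter and was not tested, had 0, 32, 20 and 53 counts in ID8-FSHR, 2, 2, 0 and 4 counts in ID8 and 0 counts in all uninjected libraries; it too was lowest in ID8-FSHR replicate 1.

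Nkg7 and Ctsw differed less between the groups than Gzma and Gzmb in both comparisons of ID8-FSHR, and their ID8-FSHR libraries were closer together. Nkg7, a granule membrane protein needed for efficient degranulation (ENSMUSG00000004612.9, plus strand of chromosome 7, 43437073 to 43438249), stood at 4.62, 17.2, 9.74 and 20.9 CPM in ID8-FSHR, against 5.64, 3.14, 2.45 and 3.15 CPM in ID8 and 3.35, 3.47, 4.51 and 5.36 CPM in uninjected mice. ID8-FSHR replicate 1 lay within both other groups and the other ID8-FSHR libraries above them. Nkg7 was 3.63-fold higher in ID8-FSHR than in ID8 (log2 difference 1.86, SE 0.40, edgeR adjusted p = 0.0117) and 3.14-fold higher than in uninjected mice (1.65, SE 0.40, edgeR adjusted p = 0.00289).

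Ctsw, a cathepsin found in NK cells and cytotoxic T cells (ENSMUSG00000024910.5, minus strand of chromosome 19, 5465043 to 5468507), stood at 4.35, 13.6, 6.13 and 14.1 CPM in ID8-FSHR, against 4.03, 1.73, 1.99 and 2.91 CPM in ID8 and 3.81, 2.44, 3.33 and 3.86 CPM in uninjected mice. With Eomes it was the only member whose ID8-FSHR libraries all lay above all others. Ctsw was 3.57-fold higher in ID8-FSHR than in ID8 (1.84, SE 0.38, edgeR adjusted p = 0.00924) and 2.85-fold higher than in uninjected mice (1.51, SE 0.38, edgeR adjusted p = 0.00355). Neither gene passed the test between ID8 and uninjected mice, where the log2 difference was -0.21 for Nkg7 (SE 0.40, edgeR adjusted p = 0.665) and -0.33 for Ctsw (SE 0.38, edgeR adjusted p = 0.468).

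Ifng, the cytokine that activates macrophages and raises antigen presentation (ENSMUSG00000055170.4, plus strand of chromosome 10, 118441046 to 118445892), stood at 0.522, 3.36, 1.18 and 3.61 CPM in ID8-FSHR, against 1.10, 0.282, 0.518 and 0.403 CPM in ID8 and 0.395, 0.369, 0.667 and 0.828 CPM in uninjected mice. ID8-FSHR replicates 2, 3 and 4 were above every other library, and replicate 1 was not. Ifng was 3.84-fold higher in ID8-FSHR than in uninjected mice (log2 difference 1.94, SE 0.60, edgeR adjusted p = 0.0120). Its difference of 1.89 from ID8 (SE 0.59, edgeR adjusted p = 0.0562) did not pass the threshold with all libraries and passed it without ID8 replicate 1 or without ID8-FSHR replicate 1. Between ID8 and uninjected mice the difference was 0.05 (SE 0.60, edgeR adjusted p = 0.952). A predicted gene on the same strand covers 336 bases of the Ifng exons, 25.9% of their length, so its count depends on how shared reads were assigned.

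Serpinb9 was the only member that was lower in ID8-FSHR than in ID8. It stood at 89.4, 64.4, 99.0 and 121 CPM in ID8-FSHR, against 182, 149, 150 and 154 CPM in ID8 and 15.1, 12.1, 15.9 and 15.0 CPM in uninjected mice, and no 2 groups overlapped (ENSMUSG00000045827.10, plus strand of chromosome 13, 33003250 to 33017957). It was 6.44-fold higher in ID8-FSHR (log2 difference 2.69, SE 0.17, edgeR adjusted p = 2.77e-08) and 11-fold higher in ID8 (3.45, SE 0.17, edgeR adjusted p = 4.1e-09) than in uninjected mice. In ID8-FSHR it was 1.70-fold lower than in ID8 (-0.77, SE 0.16, edgeR adjusted p = 0.00818). The tumour and mesothelial markers moved with it. Of these, 6 of 6 were higher in either tumour group than in uninjected mice, and 3 of the 6 were lower in ID8-FSHR than in ID8. Of all tested genes, 33.9% were higher in ID8-FSHR and 32.7% in ID8 than in uninjected mice. Between the tumour groups, 5.56% of all tested genes were lower in ID8-FSHR. Per 100 counts of these markers, Serpinb9 had 4.62, 8.69, 5.72 and 7.26 counts in ID8-FSHR, 6.77, 6.72, 5.88 and 5.55 counts in ID8 and between 128 and 159 counts in uninjected mice, where the markers are close to 0. The part of tumour cells in the Serpinb9 level was not tested. The mouse genome carries several near copies of this gene, and reads could be split between them.

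The order of the members by level, as mean CPM per kilobase of exon, differed by group. In ID8-FSHR, Gzma came first at 41.0, then Serpinb9 at 26.7, Nkg7 at 14.3, Gzmb at 11.2 and Prf1 at 6.93 CPM per kilobase. In ID8, Serpinb9 came first at 45.5, then Gzma at 6.14 and Nkg7 at 3.93 CPM per kilobase. In uninjected mice, Nkg7 came first at 4.56, then Serpinb9 at 4.16 and Gzma at 2.75 CPM per kilobase, while Gzmb held place 8 of 10 at 0.559. Nkg7 and Serpinb9 in uninjected mice did not differ beyond their spread between libraries. Gzmk was the lowest in each group, at 0.274 CPM per kilobase in ID8-FSHR, 0.157 in ID8 and 0.354 in uninjected mice.

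**Figure D2:**
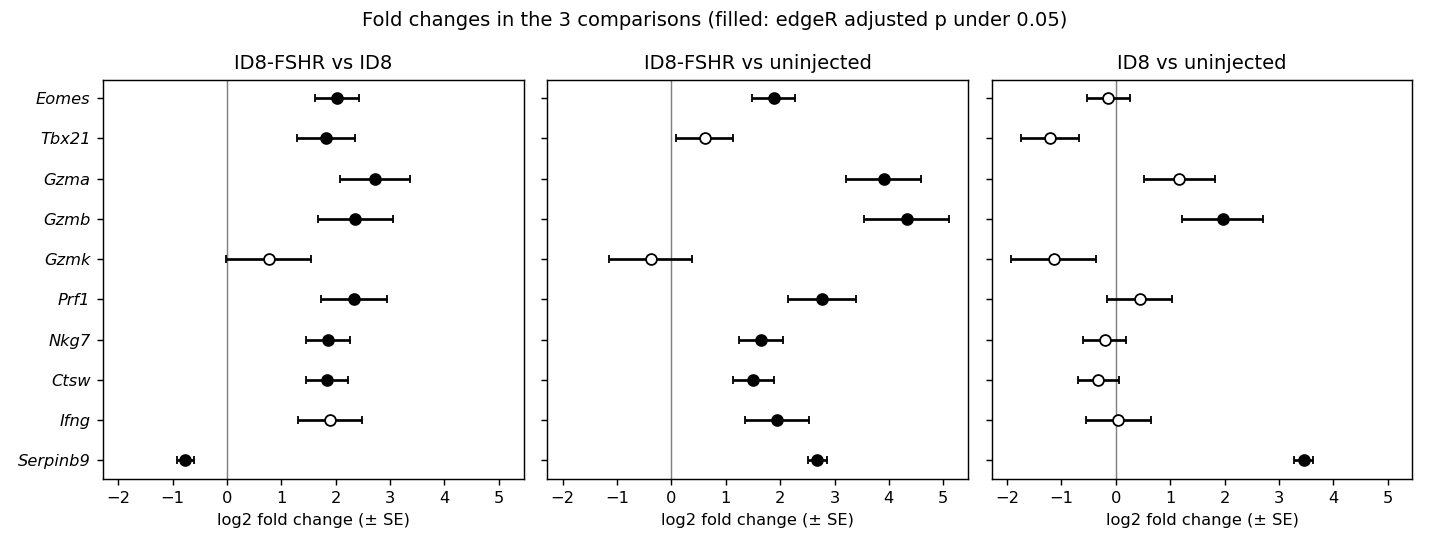
Log2 fold change of each gene in the 3 comparisons, with its standard error; filled points have an edgeR adjusted p under 0.05 over all tested genes and open points do not. Of the filled points, 8 are above 0 in ID8-FSHR against uninjected and 7 in ID8-FSHR against ID8, where Serpinb9 lies below 0; in ID8 against uninjected only Serpinb9 and Gzmb are filled.

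Set side by side, the comparisons gave the following counts. In ID8-FSHR against ID8, 7 members were higher and 1, Serpinb9, was lower, where 6.04% of all tested genes were higher and 5.56% lower. The median log2 difference of the members was 1.88, against -0.0062 over all tested genes. The groups did not overlap for Ctsw and Eomes, both higher, and for Serpinb9, lower, where 7.74% of all tested genes lay higher and 10.8% lower without overlap. Without ID8-FSHR replicate 2, which stood apart on the principal component, 3 members remained called higher (Ctsw, Eomes and Nkg7) and Serpinb9 remained called lower. The same 4 members kept their call in each of the 12 fits that left out 1 library. In these fits the number of members called higher ran from 3 to 8. The share of all tested genes called higher ran from 3.22% without ID8 replicate 4 to 10.0% without ID8-FSHR replicate 1. Gzma, Gzmb, Prf1 and Tbx21 also lost this call with limma-voom, without the filter on low counts, with pan-leukocyte scaling and in a fit of the 8 tumour libraries alone.

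In ID8-FSHR against uninjected mice, 8 members were higher, where 33.9% of all tested genes were higher and 30.6% lower. No member was lower by edgeR or DESeq2, nor at an unadjusted edgeR p under 0.05 (0 of 10). The median log2 difference of the members was 1.91, against 0.00083 over all tested genes. Gzma, Gzmb, Prf1, Ctsw, Eomes and Serpinb9 did not overlap between the groups, where 29.6% of all tested genes lay higher and 27.4% lower without overlap. All 8 calls held without any 1 library, ID8-FSHR replicate 2 included, and Ifng lost its call with limma-voom.

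In ID8 against uninjected mice, 2 members were higher, Serpinb9 and Gzmb, where 32.7% of all tested genes were higher and 31.4% lower, so the members' share was below the background. By edgeR 0 members were lower; 1, Tbx21, was lower at an unadjusted p under 0.05 and by DESeq2. The median log2 difference of the members was -0.05, against -0.03 over all tested genes. Serpinb9 was the only member without overlap between the groups, where 31.8% of all tested genes lay higher and 30.7% lower without overlap. Gzmb lost its call with limma-voom or without the filter on low counts. Scaled to the pan-leukocyte genes, the median log2 difference of all genes was 1.11. With this scaling 7 members were higher in ID8 than in uninjected mice. Of all tested genes, 73.4% were higher, so the members' share was near the background. The log2 differences of Eomes, Nkg7 and Ctsw turned to 0.99, 0.93 and 0.83. The 3 comparisons share libraries and are not independent.

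Within each group, the same library was the highest for most members. ID8-FSHR replicate 4 was the highest of all 12 libraries for 8 members, replicate 2 was next for the same 8, and replicate 3 followed for 7 of them. ID8-FSHR replicate 1 was the lowest of its group for 9 members, all but Serpinb9. In ID8, replicate 1 was the highest for 9 members, all but Gzmk. In uninjected mice, replicate 4 was the highest for 7 members, and replicates 1 and 2 were each the lowest for 5. The ratio of the highest to the lowest ID8-FSHR library was 18.2 for Gzmb, 15.3 for Gzma, 10.1 for Prf1, 4.52 for Nkg7, 4.25 for Eomes, 3.25 for Ctsw and 1.88 for Serpinb9. In uninjected mice the same ratio was 3.00 for Gzmb, 1.59 for Gzma and 1.75 for Prf1.

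NK cell markers were higher in ID8-FSHR than in ID8, as were 7 of the members, while Serpinb9 was lower and Gzmk and Ifng did not pass the test. The 9 markers (Ncr1, Klrb1c, Klrk1, Klrd1, Klre1, Klrc1, Klra4, Klra7 and Txk) summed to 28.0, 101, 56.7 and 120 CPM in ID8-FSHR, against 34.0, 15.4, 16.1 and 19.5 CPM in ID8 and 31.2, 33.4, 33.8 and 43.3 CPM in uninjected mice. None of the 9 was at 0 in any library. All 9 were higher in ID8-FSHR than in ID8, where 6.04% of all tested genes were higher. Against uninjected mice, 6 were higher in ID8-FSHR, where 33.9% of all tested genes were higher. In ID8, 1 was lower than in uninjected mice, where 31.4% of all tested genes were lower. Ncr1, the receptor NKp46, stood at 12.5 ± 8.02 CPM in ID8-FSHR, 2.45 ± 1.58 CPM in ID8 and 3.00 ± 1.07 CPM in uninjected mice (SD, n = 4 each), 5.06-fold higher in ID8-FSHR than in ID8 (edgeR adjusted p = 0.0186). Klrb1c, the receptor NK1.1, stood at 8.18 ± 4.52 CPM in ID8-FSHR, 2.49 ± 1.5 CPM in ID8 and 3.75 ± 0.873 CPM in uninjected mice (SD, n = 4 each), 3.26-fold higher in ID8-FSHR than in ID8 (edgeR adjusted p = 0.0364).

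Each library was also scaled to these NK markers in place of TMM, an alternative chosen after seeing the data. The median log2 difference of all genes was then -1.54 in ID8-FSHR against ID8. Under this scaling 0 members were higher in ID8-FSHR than in ID8 by edgeR, also at an unadjusted p under 0.05. Of all tested genes, 0.0473% were higher, so this count is near that of all genes. In the other direction 1 member, Serpinb9, was lower, where 81.8% of all tested genes were lower, so the members' share was below the background. The log2 differences were 0.74 for Gzma (SE 0.51, edgeR adjusted p = 0.168), 0.10 for Eomes (SE 0.55, edgeR adjusted p = 0.856) and -0.0032 for Nkg7 (SE 0.54, edgeR adjusted p = 0.996). Against uninjected mice, 4 members were higher in ID8-FSHR on this scale, where 13.2% of all tested genes were higher and 23.3% lower: Gzmb by 3.02 (SE 0.60, edgeR adjusted p = 4.81e-06), Gzma by 2.56 (SE 0.54, edgeR adjusted p = 2.2e-05), Serpinb9 by 1.99 and Prf1 by 1.52 (SE 0.55, edgeR adjusted p = 0.0202). In ID8, Gzmb was higher by 2.68, Gzma by 1.83 and Serpinb9 by 4.28 than in uninjected mice on the same scale, where 31.0% of all tested genes were higher. Per 100 NK marker counts, Gzma had 18.3, 55.6, 44.9 and 65.2 counts in ID8-FSHR, 33.9, 28.9, 17.3 and 30.3 counts in ID8 and 7.83, 6.73, 8.25 and 8.26 counts in uninjected mice. All 8 tumour libraries were above all uninjected libraries on this measure, while the tumour groups overlapped. Nkg7 had 16.5 to 17.4 counts per 100 NK marker counts in ID8-FSHR, 15.2 to 20.4 in ID8 and 10.4 to 13.3 in uninjected mice.

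**Figure D3:**
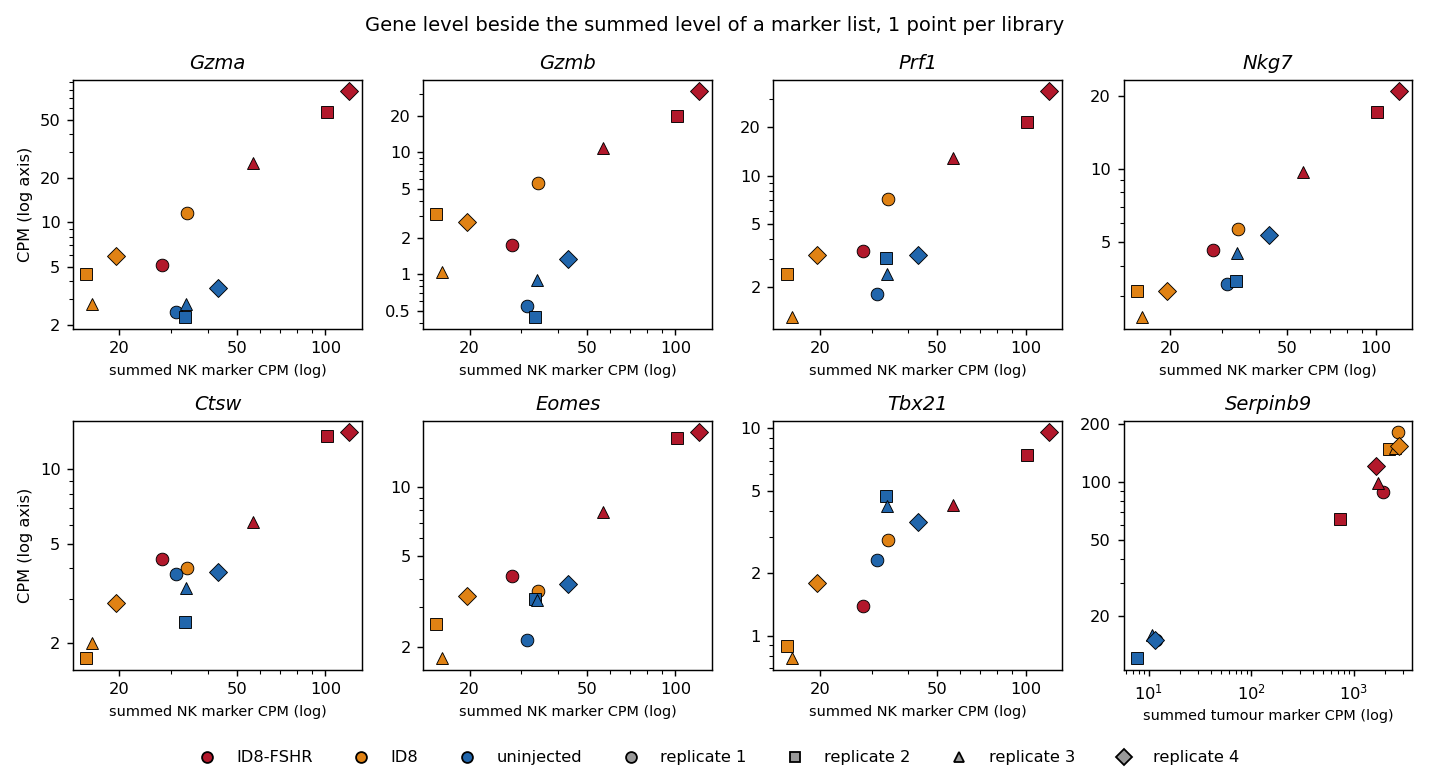
Level of 8 of the genes in each library against the summed NK cell markers or, for Serpinb9, the summed tumour and mesothelial markers, all in CPM on log axes; colours give the group and symbols the replicate. ID8-FSHR replicates 2, 3 and 4 lie at the upper right for the NK marker panels, and the uninjected libraries lie below the tumour libraries for Gzma at a like marker level.

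T cell markers differed from the NK cell markers in the comparisons with uninjected mice. The 12 markers summed to 101, 185, 86.7 and 167 CPM in ID8-FSHR, against 69.2, 56.1, 60.0 and 65.1 CPM in ID8 and 68.6, 210, 141 and 115 CPM in uninjected mice, and none was at 0 in any library. Of the 12, 6 were higher in ID8-FSHR than in ID8 by edgeR, where 6.04% of all tested genes were higher. All 12 were higher at an unadjusted edgeR p under 0.05, which 4832 of the 16915 tested genes passed in either direction. DESeq2 also called all 12 higher, where it called 8.39% of its tested genes higher. The median log2 difference of the 12 by edgeR was 1.09. Compared with uninjected mice, 11 were lower in ID8, where 31.4% of all tested genes were lower. In ID8-FSHR 0 were higher and 0 lower, where 33.9% of all tested genes were higher and 30.6% lower. Cd3e, a chain of the T cell receptor complex, stood at 12.5 ± 4.00 CPM in ID8-FSHR, 5.81 ± 0.0641 CPM in ID8 and 11.2 ± 4.36 CPM in uninjected mice (SD, n = 4 each). It was 2.15-fold higher in ID8-FSHR than in ID8 (edgeR adjusted p = 0.0255), and its log2 difference between ID8-FSHR and uninjected mice was 0.16 (SE 0.28, edgeR adjusted p = 0.633). Cd8a, the marker of cytotoxic T cells, stood at 7.84 ± 3.03 CPM in ID8-FSHR, 4.02 ± 0.635 CPM in ID8 and 8.28 ± 4.50 CPM in uninjected mice (SD, n = 4 each), and its difference of 0.96 between ID8-FSHR and ID8 did not pass the test (SE 0.36, edgeR adjusted p = 0.0992). Mast cells, which can hold granzymes and Serpinb9 as well, were read from 10 markers, none at 0 in any library. Of these, 6 were lower and 1 was higher in ID8-FSHR than in uninjected mice, where 30.6% of all tested genes were lower and 33.9% higher. In ID8-FSHR against ID8, 1 was lower, where 5.56% of all tested genes were lower. Their sum was 585 to 920 CPM in ID8-FSHR, 817 to 1032 CPM in ID8 and 930 to 1455 CPM in uninjected mice. The parts of T cells and mast cells in the members' levels were not tested.

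Further ratios were read between Gzma, Prf1, Gzmb and Nkg7. The ratio of Gzma to Prf1 CPM was 1.52, 2.59, 1.98 and 2.32 in ID8-FSHR, 1.61, 1.84, 2.15 and 1.86 in ID8 and 1.35, 0.739, 1.15 and 1.12 in uninjected mice. All 8 tumour libraries lay above all 4 uninjected libraries. The exact two-sided permutation p was 0.0286 for either tumour group against uninjected mice and 0.0857 after adjustment over the 12 tests, so this too did not pass correction. The ratio of Gzmb to Gzma averaged 0.381 ± 0.0407 in ID8-FSHR, 0.501 ± 0.139 in ID8 and 0.278 ± 0.0813 in uninjected mice (SD, n = 4 each), and that of Nkg7 to Prf1 averaged 0.887 ± 0.336, 1.24 ± 0.482 and 1.63 ± 0.338 in the same groups. None of their 6 differences passed correction (adjusted exact permutation p between 0.114 and 0.343).

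**Figure D4:**
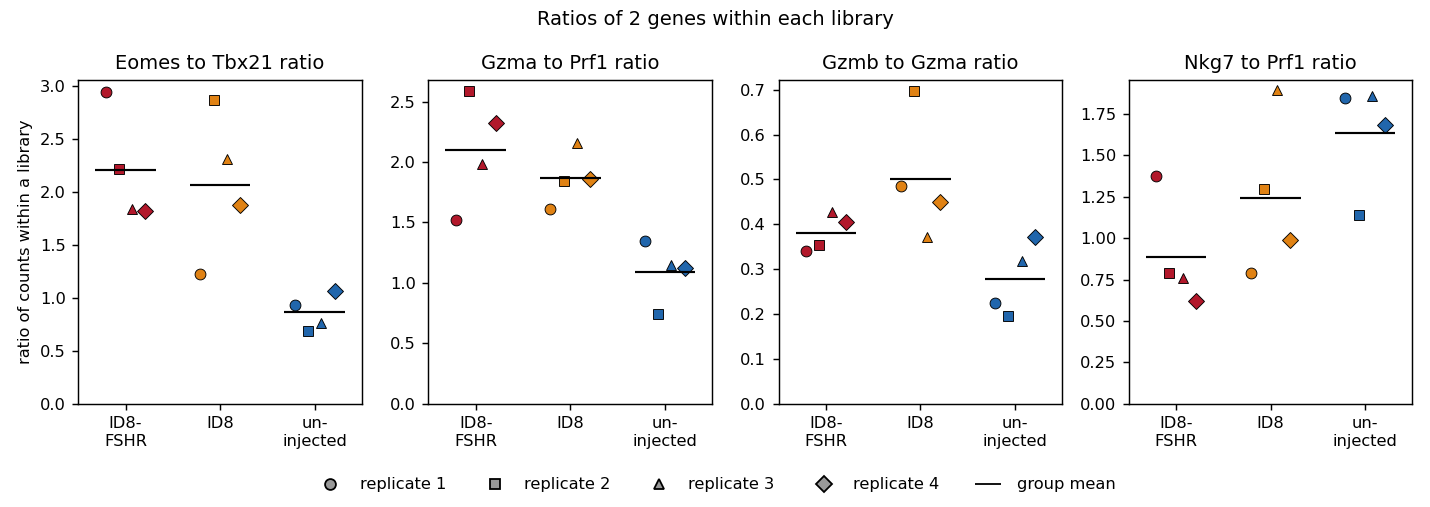
The 4 ratios between members in each library (CPM divided by CPM, linear axes); points are libraries, bars are group means, and groups run ID8-FSHR, ID8 and uninjected from left to right. Eomes to Tbx21 and Gzma to Prf1 are higher in all tumour libraries than in all uninjected libraries.

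Of 73 other genes of the granule and T-box pathways, 60 were tested. In ID8-FSHR against ID8, 12 of the 60 were higher and 1 was lower, with a median log2 difference of 0.45. Of all tested genes, 6.04% were higher and 5.56% lower in this comparison. In ID8-FSHR against uninjected mice 24 were higher and 14 lower (median 0.15), where 33.9% of all tested genes were higher and 30.6% lower. In ID8 against uninjected mice 13 were higher and 25 lower (median -0.33), where 32.7% of all tested genes were higher and 31.4% lower. The same shares apply to the lists below. Inducers of Ifng and death ligands held 7 of the 12 genes that were higher in ID8-FSHR than in ID8.

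Among the inducers of Ifng, 5 of 12 were higher in ID8-FSHR than in ID8. These were the interleukin 18 receptor chains Il18r1 (14.2 ± 5.12 CPM in ID8-FSHR and 5.55 ± 0.784 CPM in ID8; 2.56-fold, edgeR adjusted p = 0.00225) and Il18rap (3.08-fold, edgeR adjusted p = 0.00635), the shared interleukin 2 and 15 receptor chain Il2rb (3.42-fold, edgeR adjusted p = 0.00728), the interleukin 12 signal transducer Stat4 (1.49-fold, edgeR adjusted p = 0.0123) and the interleukin 12 receptor chain Il12rb2 (2.38-fold, edgeR adjusted p = 0.0499). Il18r1 and Stat4 were lower in ID8 than in uninjected mice, by -1.52 (SE 0.23, edgeR adjusted p = 6.64e-05) and -1.40 (SE 0.13, edgeR adjusted p = 7.67e-07). Interleukin 18 itself, Il18, was 2.69-fold higher in ID8 than in uninjected mice (edgeR adjusted p = 4.5e-06).

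Of 5 genes known as T-box targets, 3 were higher in ID8-FSHR than in ID8, the chemokines Xcl1 (5.14-fold, edgeR adjusted p = 0.0289) and Ccl5 (2.61-fold, edgeR adjusted p = 0.0300) and the chemokine receptor Cxcr3 (2.51-fold, edgeR adjusted p = 0.0348). Of the 12 partner factors, Tox, which acts in NK cell development, was higher in ID8-FSHR than in ID8 (3.84-fold, edgeR adjusted p = 0.00348). Against uninjected mice, Ikzf3, a lymphoid factor abundant in B cells, was 5.25-fold lower in ID8-FSHR (edgeR adjusted p = 7.11e-08) and 7.15-fold lower in ID8 (edgeR adjusted p = 1.84e-08), and all 5 B cell markers were lower in both. Zeb2 was 1.96-fold lower in ID8-FSHR (edgeR adjusted p = 5.21e-06) and 1.98-fold lower in ID8 (edgeR adjusted p = 4.5e-06). Gata3 was higher, by 3.94-fold in ID8-FSHR (edgeR adjusted p = 8.87e-08) and 3.16-fold in ID8 (edgeR adjusted p = 3.91e-07). Of the 3 death ligands, Fasl and Tnfsf10 were higher in ID8-FSHR than in ID8, with log2 differences of 1.91 (edgeR adjusted p = 0.0309) and 0.98 (edgeR adjusted p = 0.0364).

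All 3 tested inhibitors of granule proteases besides Serpinb9 were higher in both tumour groups than in uninjected mice, and 1 of them, Serpinb6b, was lower in ID8-FSHR than in ID8. Serpinb6b stood at 108 ± 26.9 CPM in ID8-FSHR, 243 ± 35.5 CPM in ID8 and 3.43 ± 0.704 CPM in uninjected mice (SD, n = 4 each). It was 31.4-fold higher in ID8-FSHR and 71.2-fold higher in ID8 than in uninjected mice (edgeR adjusted p = 3.14e-09 and 1.2e-09) and 2.26-fold lower in ID8-FSHR than in ID8 (edgeR adjusted p = 0.00182). Serpinb6a was 1.85-fold and 1.98-fold higher in ID8-FSHR and ID8 than in uninjected mice (edgeR adjusted p = 1.95e-07 and 7.65e-08), and its log2 difference between ID8-FSHR and ID8 was -0.10 (SE 0.07, edgeR adjusted p = 0.384). Serpinb9b, a near relative of Serpinb9, stood at 3.80 ± 2.14 CPM in ID8-FSHR, 1.71 ± 0.980 CPM in ID8 and 0.0604 ± 0.0407 CPM in uninjected mice (SD, n = 4 each), where at least 1 library had 0 counts. Its log2 difference between ID8-FSHR and ID8 was 1.14 (SE 0.50, edgeR adjusted p = 0.152).

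Among genes of granule transport and release, 1 of 7 cargo and processing genes was higher in ID8-FSHR than in ID8, the sorting receptor gene Igf2r (1.32-fold, edgeR adjusted p = 0.0429). Of 7 release genes, 2 were higher and 3 lower in ID8-FSHR than in uninjected mice, where 33.9% of all tested genes were higher and 30.6% lower. In ID8 against uninjected mice 1 was higher and 4 lower, where 32.7% of all tested genes were higher and 31.4% lower. Against uninjected mice the processing protease gene Ctsl was 1.89-fold higher in ID8 (edgeR adjusted p = 2.86e-06), Igf2r was 1.97-fold higher in ID8-FSHR (edgeR adjusted p = 9.74e-06), and the lysosome trafficking regulator Lyst was 1.94-fold lower in ID8-FSHR (edgeR adjusted p = 2.35e-05).

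The genes most like each member over the 12 libraries were sought by the root mean square difference of centred log2 values (CPM plus 0.5). The search covered 12158 genes and left out the members themselves and predicted gene models. For Nkg7 they were Klre1 (0.19) and Il2rb (0.21), for Ctsw Klri2 (0.25) and Klrc2 (0.26), for Eomes Klri2 (0.25) and Klrb1f (0.25), and for Ifng Samd3 (0.26) and Klri2 (0.26). Klre1, Klri2, Klrc2 and Klrb1f are NK cell receptors. For Prf1 they were Tnfrsf9 (0.32) and Xcl1 (0.37), and for Tbx21 Il18rap (0.30) and Sh2d2a (0.31). Gzmb was nearest to the chemokine Cxcl9 (0.46) and to Ucp1 (0.52), and Gzma to Muc20 (0.51) and Nexmif (0.53). No gene searched came closer to either granzyme, but Gzma and Gzmb were not compared with each other or with the other members. Serpinb9 was nearest to Cnksr1 (0.16) and Fam83b (0.17), and Gzmk, near its detection limit, to Btbd11 (0.19) and Sertad3 (0.24).

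**Figure D5:**
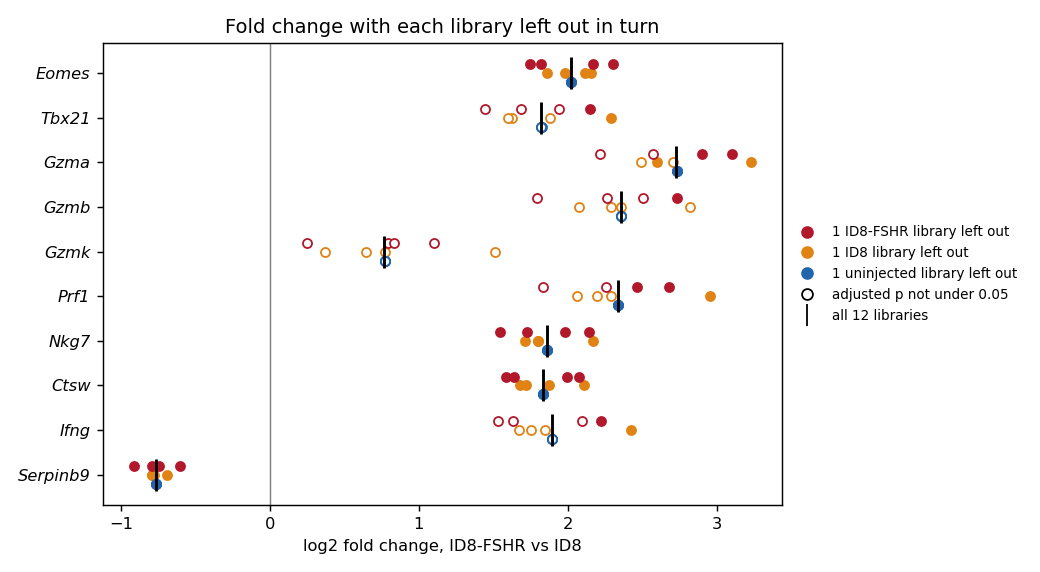
Log2 fold change of each gene in ID8-FSHR against ID8 when each of the 12 libraries is left out in turn; filled points have an edgeR adjusted p under 0.05. Eomes, Ctsw, Nkg7 and Serpinb9 are filled in every fit, and Gzmb in 1.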

How the data were processed

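The labels gave each library's group and replicate number. The sample titles of ID8-FSHR skip numbers (B1, B2, B4 and B6), and whether other mice were left out is not known here. The series text calls the libraries of a group biological replicates. Where nothing more is said of the animals, p-values measure the spread between these libraries. Raw read counts for each gene were deposited by the authors as whole numbers, 1 column per library; 0 per-sample columns were left unused. Reads were processed with bcl2fastq 2.20, STAR 2.7.9a and featureCounts of Subread 1.6.4 on GRCm38.p6, per the submitters' processing notes. Per the labels' protocols, RNA was extracted with a miRNeasy Micro kit and 100 ng entered a KAPA HyperPrep library with ribosomal depletion. Strand setting, annotation release and treatment of multi-mapping reads were not given in the sources used here, so counts of overlapping genes and of near copies are uncertain.

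For each gene, edgeR 4.0.16 in R 4.3.3 gave a quasi-likelihood F test (TMM scaling, filterByExpr, robust) on all 12 libraries, with group as the only term and Benjamini-Hochberg adjustment over 16915 genes; "higher", "lower" and "called" mean an adjusted p under 0.05. The SE is that of the log2 fold change, taken from the F statistic. A library with 0 counts is limited to 3 counts, 0.0444 to 0.0653 CPM, and such limits cover counting error only. No pair of libraries in a group agreed within sampling noise. Exon lengths, positions and overlaps are from GENCODE M21 (GRCm38), which holds all 10 members under the same identifier version, and promoters are from RefSeq.

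The members, gene lists, tests and alternatives were chosen with earlier results of these data known. Besides the members, the text names in each comparison the 8 pathway genes with the smallest adjusted p, fixed markers, and for each member the 2 nearest genes of mean CPM at least 1; counts of 5 or fewer could be named in full. Of 154 listed symbols, 153 matched 1 row. Alternatives were DESeq2 1.42.0, limma-voom (limma 3.58.1), median-of-ratios, pan-leukocyte and NK marker scaling, no filter, 1 CPM in 4 libraries, only the groups compared, a replicate block, leaving out the 10 most abundant genes, an adjusted p under 0.01, and leaving out each library.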

Additional observations from a re-analysis of the deposited data

Results flagged for a closer look

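Serpinb9 in ID8 replicate 1 stood at 182 CPM, apart from the other 3 ID8 libraries at 149 to 154 CPM; the gap made up 0.841 of the group's range, above Dixon's 95% critical value for 4 values. It was the only such value in 30 groups of 4 libraries (10 genes in 3 groups), and chance flags about 1 in 20. ID8 replicate 1 was also the highest of its group for 8 further members and for the summed NK cell markers (34.0 CPM, against 15.4 to 19.5 CPM in the other ID8 libraries).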

How the results depend on the processing

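Of 687 single-gene results under the alternatives, 579 kept direction and side of the threshold, 76 lost their call, 13 gained one and 19 changed sign. Serpinb9 kept its direction and call in all 3 comparisons under every alternative run. In ID8-FSHR against uninjected mice, Gzma, Gzmb and Prf1 did so as well, and the 8 higher members fell to 4 with NK marker scaling. In ID8-FSHR against ID8, the 7 higher members became 3 with limma-voom, pan-leukocyte scaling, no filter or only the groups compared, 2 at an adjusted p under 0.01 and 0 with NK marker scaling. In ID8 against uninjected mice, the 2 higher members became 7 with pan-leukocyte scaling and 1 with limma-voom, no filter or an adjusted p under 0.01, and 1 member, Tbx21, was lower with DESeq2 or only the groups compared. Leaving out 1 library gave 3 to 8 higher members in ID8-FSHR against ID8. It gave 8 to 8 in ID8-FSHR against uninjected mice and 1 to 3 in ID8 against uninjected mice. In the same order, 1 to 1, 0 to 0 and 0 to 1 members were lower. Of all tested genes, 3.22% to 10.0%, 31.5% to 37.3% and 30.5% to 36.2% were higher in these fits. The cause of these changes was not tested.

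The comparisons are given here in the order ID8-FSHR against ID8, ID8-FSHR against uninjected and ID8 against uninjected mice. With pan-leukocyte scaling the median log2 difference of all genes was -0.31, 0.83 and 1.11. With NK marker scaling it was -1.54, -0.69 and 0.83, beside -0.0062, 0.00083 and -0.03 with TMM. Changes under these scalings are relative to their medians. Calls over all genes then split into 298 higher and 965 lower, 10989 and 1165, and 12421 and 759 with pan-leukocyte scaling, and into 8 and 13833, 2230 and 3947, and 5249 and 486 with NK marker scaling, beside 1021 and 941, 5735 and 5178, and 5537 and 5310 with TMM. The sign changed, in ID8 against uninjected mice, with pan-leukocyte scaling for Nkg7 (0.93), Eomes (0.99), Ctsw (0.83) and Gzmk (0.017), with NK marker scaling for Nkg7 (0.54), Eomes (0.66) and Ctsw (0.39), with limma-voom for Ifng (-0.00077), and without a library for Eomes (0.023 without ID8 replicate 3; range over the libraries -0.28 to 0.023), Prf1 (-0.18 without ID8 replicate 1; range -0.18 to 0.71) and Ifng (-0.48, -0.090 and -0.11 without ID8 replicate 1, uninjected replicate 1 or uninjected replicate 2; range -0.48 to 0.29). It changed in ID8-FSHR against uninjected mice for Tbx21 (-0.60, NK marker scaling) and Gzmk (0.31, pan-leukocyte scaling), and in ID8-FSHR against ID8 with NK marker scaling for Nkg7 (-0.0032), Ifng (-0.0055), Tbx21 (-0.023) and Gzmk (-1.07). The log2 difference of the Eomes to Tbx21 ratio between ID8-FSHR and ID8 was -0.0994 without ID8 replicate 1 and -0.019 without ID8-FSHR replicate 1. Gzmk has no value under the filter of 1 CPM in 4 libraries.

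A pairing of libraries by replicate number was not seen. Deviations from the group means correlated between -0.22 and 0.35 for the same number and between -0.33 and 0.33 for other numbers. With 4 libraries a group, these correlations cannot exclude a pairing. With the replicate block, 3 members were higher in ID8-FSHR against ID8 and 1 in ID8 against uninjected mice, and the 8 in ID8-FSHR against uninjected mice were unchanged. Depth limits what can be said of Gzmk, which had 0 to 37 counts per library.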

Other observations

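Monocyte markers were among the other cell signals that differed within the tumour groups. Ly6c2, Ccr2 and Plac8 summed to 194, 497, 319 and 497 CPM in ID8-FSHR replicates 1 to 4, against 190 to 261 CPM in ID8 and 407 to 627 CPM in uninjected mice, so the libraries with the highest granzyme levels also had the highest sums of the tumour groups. Of the 3, 1 was higher in ID8-FSHR than in ID8, where 6.04% of all tested genes were higher. Genes of the Ifng receptor and its response summed to 993, 1541, 1390 and 1811 CPM in ID8-FSHR, 1045 to 1383 CPM in ID8 and 1157 to 1336 CPM in uninjected mice. Of the 10 tested, 5 were higher and 2 lower in ID8-FSHR than in uninjected mice, where 33.9% of all tested genes were higher and 30.6% lower. In ID8 against uninjected mice 4 were higher and 3 lower, where 32.7% of all tested genes were higher and 31.4% lower. In ID8-FSHR against ID8, 0 of the 10 passed the edgeR test. At an unadjusted edgeR p under 0.05, 4 were higher, where 4832 of the 16915 tested genes passed in either direction. DESeq2 called 2 higher, where it called 8.39% of its tested genes higher. Cxcl9, a chemokine induced by interferon gamma, stood at 13.7 ± 11 CPM in ID8-FSHR, 3.52 ± 1.83 CPM in ID8 and 0.352 ± 0.188 CPM in uninjected mice (SD, n = 4 each), with log2 differences of 1.96 between the tumour groups (edgeR adjusted p = 0.0568) and 5.29 between ID8-FSHR and uninjected mice (edgeR adjusted p = 4.46e-05).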
